A study of Homo sapiens with 2 samples.

Results

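The 6 mature microRNAs (miRNAs) of the NF-kB and inflammation group were followed in 2 cultures of a human oral squamous cell carcinoma line: miR-146a-5p, miR-146b-5p, miR-155-5p, miR-147b, miR-132-3p and miR-212-3p. They were taken by name from the authors' deposited table, where all 6 were found among 1213 entries, 1178 of which carry miRNA names. UM-SCC6-M is the culture grown from cells that had crossed the matrix of a microfluidic chip to its invasion front through 3 rounds, and its labels call it highly invasive and partly mesenchymal. Parental UM-SCC6, from which it came, is an established line of oral carcinoma. Each culture gave 1 small RNA library, with 7699490 recovered miRNA reads for UM-SCC6-M and 8182958 for parental UM-SCC6. With 1 library per culture, the differences below could not be set against a spread between replicates, and the cultures were compared without a test.

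NF-kB is a family of transcription factors that inhibitor proteins hold in the cytoplasm. Toll-like receptors, interleukin-1 receptors and tumour necrosis factor receptors release it through kinase cascades that pass through TRAF proteins. The cascades of Toll-like and interleukin-1 receptors also pass through IRAK proteins. miR-146a and miR-146b are induced by this pathway and repress IRAK1 and TRAF6, which makes them a brake on their own inducer, whereas miR-155 is induced in the same settings and represses the cytokine brake SOCS1. The homologue of miR-147b in mouse macrophages is induced by Toll-like receptor ligands and dampens cytokine output. miR-132 and miR-212 are induced by the transcription factor CREB, and miR-132 represses EP300, the coactivator p300.

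The mature sequences show which of the 6 can pair with the same messenger RNAs. They are RefSeq sequences on GRCh38.p14, written 5′ to 3′, with the seed (bases 2 to 8), the part that leads target pairing, in capitals. All 6 matched a RefSeq entry, miR-147b under the name miR-147b-3p.
miR-146a-5p: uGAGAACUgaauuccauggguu
miR-146b-5p: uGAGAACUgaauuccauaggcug
miR-155-5p: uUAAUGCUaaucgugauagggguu
miR-147b: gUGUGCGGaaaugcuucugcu
miR-132-3p: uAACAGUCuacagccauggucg
miR-212-3p: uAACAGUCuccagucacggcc

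The 6 miRNAs carried 4 seeds. miR-146a-5p and miR-146b-5p shared one, and they differ at 2 positions counted from the 5′ end of miR-146a-5p, G18A and U21C, with miR-146b-5p being 1 base longer. miR-132-3p and miR-212-3p shared another and differ at 4 positions counted from the 5′ end of miR-132-3p, A10C, C14U, U17C and U20C. The seeds of miR-155-5p and miR-147b were each found in 1 of the 6 only, and none of the 4 seeds was found in another of the 1038 table entries that matched RefSeq by name. miR-147a, the namesake of miR-147b, differs from it inside the seed (C6U, counted from the 5′ end of miR-147b). It was listed at 0 in both libraries, which the table does for levels below 1 normalized read, up to 8 reads in UM-SCC6-M and 7 in the parental library. Its deposited log2 fold change of -2.74 in the authors' deposited table matches 1 read in UM-SCC6-M against 6.

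The genes lie on 5 chromosomes. The mature miR-146a-5p lies at chr5:160485372-160485393 on the plus strand, in an exon of the long noncoding RNA MIR3142HG in GENCODE release 29 (GRCh38). miR-146b-5p lies at chr10:102436520-102436542 on the plus strand, outside any annotated gene other than its own hairpin. miR-155-5p lies at chr21:25573983-25574006 on the plus strand, in an exon of its noncoding host MIR155HG. miR-147b lies at chr15:45433098-45433118 on the plus strand, in an exon of the protein-coding gene C15orf48, in the part annotated as its 3′ untranslated region, and an annotated antisense gene spans the locus on the minus strand. C15orf48 encodes a small mitochondrial protein related to the respiratory chain subunit NDUFA4. miR-132-3p (chr17:2049929-2049950) and miR-212-3p (chr17:2050290-2050310) lie on the minus strand, and 262 bases separate their hairpins.

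The 6 miRNAs spanned a wide range of levels and held the same order in both libraries, miR-146a-5p, miR-155-5p, miR-147b, miR-146b-5p, miR-132-3p and miR-212-3p from high to low. Levels are in normalized reads, which the authors had scaled, and a positive log2 ratio means a higher level in UM-SCC6-M than in the parental library. Brackets hold exact 95% intervals for counting error alone, with each read taken as independent. PCR copies of 1 molecule are counted as separate reads, so these intervals can be too narrow. In each library the counting intervals of neighbours in this order did not overlap. Reads of different miRNAs also depend on how well each sequence is ligated, so the order is one of reads.

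**Figure D1:**
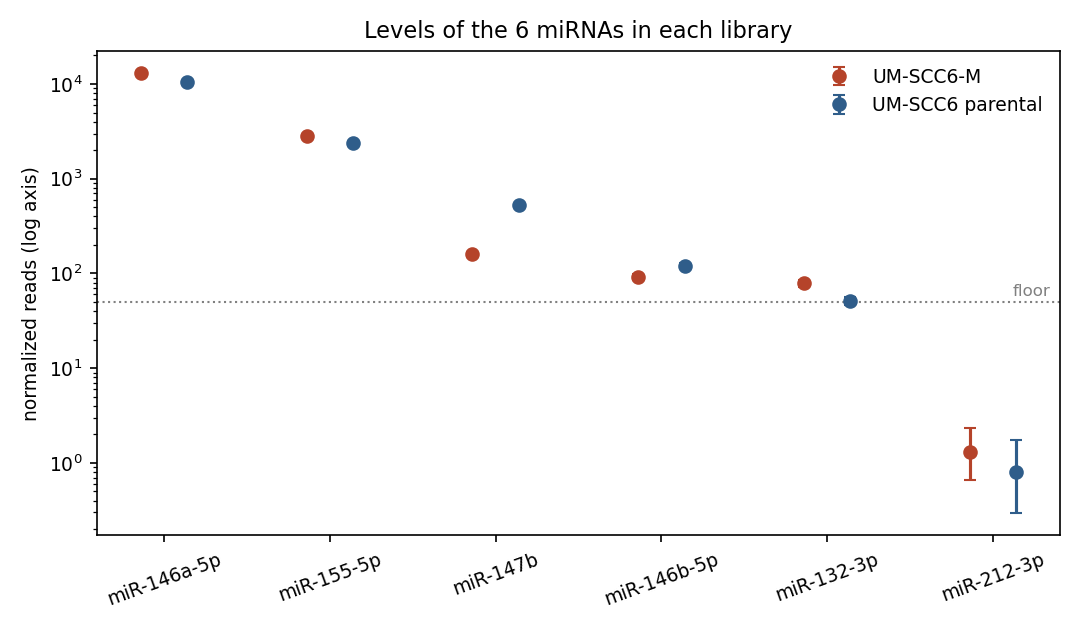
Normalized reads (vertical log axis) of the 6 miRNAs in the UM-SCC6-M library (red, left) and the parental library (blue, right), with exact 95% Poisson intervals of the reads, 1 library each. The dotted line is the floor of 50 normalized reads, and only miR-212-3p lies under it, at 11 and 6 reads.

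A miRNA was called when its levels were at least 2-fold apart and the higher of them reached a floor of 50 normalized reads. By this rule 1 of the 6 was called lower in UM-SCC6-M and 0 were called higher. Across all miRNAs at that floor, 36 of 179 (20.1%) were at least 2-fold apart, 13 (7.26%) higher and 23 (12.8%) lower. Scaling to total reads gave a split of 22 higher and 20 lower. The rule took in 5 of the 6, as miR-212-3p stayed under the floor. The median log2 ratio of these 5 was 0.24, against 0.04 for the 179, and that of all 6 was 0.27. The 1 called of 5 (20%) is near the share for all miRNAs.

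miR-147b was the one past 2-fold, with 158.9 normalized reads in UM-SCC6-M against 528.5 in the parental library. It was 3.32-fold lower (3.12 to 3.54) in UM-SCC6-M, a log2 ratio of -1.73 (-1.82 to -1.64), on 1331 reads against 3977. It had the tenth lowest ratio of the 179. Its ratio lay between -1.75 and -1.49 under the 6 alternative values computed (4 scalings, another added count, and the deposited fold change), so it was past 2-fold in each. The authors' deposited table gives miR-147b a q-value of 2.14e-34. It was the only one of the 6 that bears the authors' mark for selected entries, which 44 of 854 entries (5.15%) bear.

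The pair with the seed of miR-146 went opposite ways, under each scaling tried. miR-146a-5p, the most abundant of the 6, had 13061 normalized reads in UM-SCC6-M against 10557 in the parental library. Its log2 ratio was 0.31 (0.29 to 0.32) in the deposited scaling, a 1.24-fold higher value. It held 1.42% (1.41 to 1.43) of the UM-SCC6-M reads against 0.971% (0.964 to 0.978) of the parental reads. These shares follow the scaling to total reads, under which the log2 ratio of miR-146a-5p was 0.55. It ranked 9 of 555 in UM-SCC6-M against 15 in the parental library. miR-146b-5p had 91.1 normalized reads in UM-SCC6-M against 120.9 in the parental library, on 763 reads against 910. Its log2 ratio of -0.41 (-0.55 to -0.27) is a 1.33-fold lower value. From the top of the 179, the ratio of miR-146a-5p ranked 61 and that of miR-146b-5p 125. Both ratios lay between the quartiles of the 179, -0.61 and 0.41.

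A comparison within each library does not depend on the scaling. miR-146a-5p had 143.4 times the reads of miR-146b-5p in UM-SCC6-M and 87.3 times in the parental library. The log2 ratio of the pair was thus 0.72 (0.57 to 0.86) higher in UM-SCC6-M. The share of the pair held by miR-146a-5p was 99.3% (99.26 to 99.36) in UM-SCC6-M and 98.9% (98.79 to 98.94) in the parental library. The summed level of the pair, which is that of their seed, had a log2 ratio of 0.30 (0.29 to 0.31). The pair differs only near the 3′ end, how the authors divided reads between near-identical names is not given in the sources used here, and the part of this in the low value of miR-146b-5p was not tested. The opposite arm, miR-146b-3p, had 13 reads in UM-SCC6-M against 12 in the parental library, and its log2 ratio had a counting interval of -1.29 to 1.22. The opposite arms miR-146a-3p and miR-147b-5p had no entry under these names.

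miR-155-5p had 2836 normalized reads in UM-SCC6-M against 2397 in the parental library, on 23751 reads against 18038. The log2 ratio was 0.24 (0.21 to 0.27), a 1.18-fold higher value, and it lay between 0.22 and 0.48 under the alternatives. Nearly all products of this hairpin were of the 5p arm, 99.90% in UM-SCC6-M and 99.93% in the parental library. The 3p arm had 23 reads in UM-SCC6-M against 13, and the arm balance differed by -0.43 on the log2 scale, with an interval of -1.53 to 0.62 that includes 0.

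**Figure D2:**
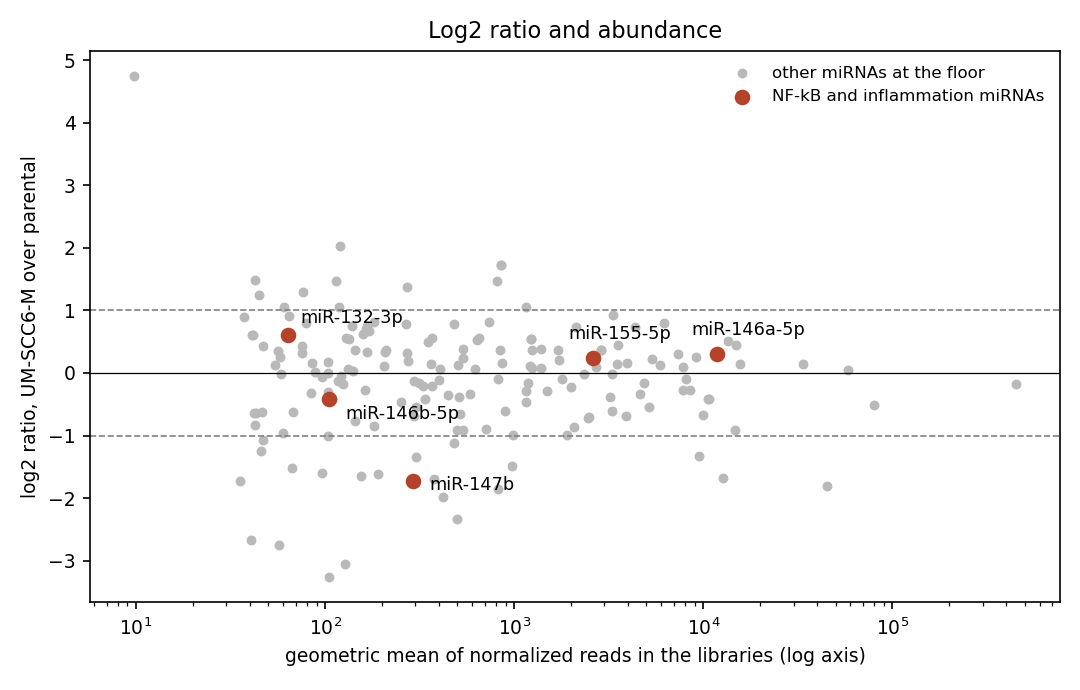
Log2 ratio of UM-SCC6-M over parental (vertical axis) against the geometric mean of the normalized reads of both libraries (horizontal log axis) for the 179 miRNAs at 50 or more normalized reads. Red points are the 5 named miRNAs, dashed lines mark 2-fold, and miR-147b at -1.73 is the only red point beyond them.

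The miR-132 and miR-212 hairpins gave 4 products whose levels differed widely. The hairpins are shown to place the arms, as RefSeq lists them on GRCh38.p14, 5′ to 3′ on the minus strand (MIR132 at chr17:2049908-2050008, MIR212 at chr17:2050271-2050380), with the 5p and then the 3p product in capitals.
MIR132: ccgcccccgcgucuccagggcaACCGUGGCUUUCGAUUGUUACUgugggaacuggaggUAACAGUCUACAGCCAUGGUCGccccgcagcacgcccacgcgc
MIR212: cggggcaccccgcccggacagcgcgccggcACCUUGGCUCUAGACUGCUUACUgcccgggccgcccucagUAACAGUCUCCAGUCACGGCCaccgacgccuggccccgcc

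miR-132-3p had 78.3 normalized reads in UM-SCC6-M against 51.4 in the parental library, on 656 reads against 387. It was 1.52-fold higher in UM-SCC6-M, with a log2 ratio of 0.61 (0.42 to 0.79), the highest of the 5 at the floor and rank 31 from the top among the 179. The other arm of the hairpin, miR-132-5p, had 40.8 normalized reads in UM-SCC6-M against 46.0 in the parental library. Its log2 ratio was -0.17, its interval of -0.39 to 0.05 includes 0, and scaling to the totals turned it to 0.07, so no direction is given for it.

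The 3p arm held 65.7% (62.7 to 68.7) of the reads of the miR-132 hairpin in UM-SCC6-M and 52.8% (49.1 to 56.5) in the parental library. The arm balance lay 0.78 (0.49 to 1.07) further toward miR-132-3p in UM-SCC6-M on the log2 scale, whatever the scaling. Arm balance was not computed over all hairpins, so this difference has no background beside it. Elsewhere the log2 ratios of both arms lay far apart for miR-30a (5p -1.81, 3p 0.16) and close together for miR-221 (5p -0.29, 3p -0.34). The 5p arms of the neighbouring hairpins, both under the floor of 50 normalized reads, differed too. miR-212-5p had 58 reads in UM-SCC6-M against 28 in the parental library, a log2 ratio of 0.88 (0.22 to 1.6), and the log2 ratio of miR-132-5p to miR-212-5p was lower by 1.07 (interval of the difference -1.81 to -0.35). The authors' deposited q-values are 0.769 for miR-212-5p and 0.991 for miR-132-5p.

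miR-212-3p was barely read. It was listed at 1.31 normalized reads in UM-SCC6-M and at 0 in the parental library, and the deposited fold change gives 11 reads against 6. The log2 ratio of 0.67 has an interval of -0.84 to 2.44, so no difference was detectable at this depth. Within its hairpin the 5p arm was the more read one, as the 3p arm held 15.9% (8.24 to 26.7) of the reads in UM-SCC6-M and 17.6% (6.76 to 34.5) in the parental library. miR-132-3p made up 98.4% of the reads with their common seed in UM-SCC6-M and 98.5% in the parental library. Together the 4 products had 1067 reads in UM-SCC6-M against 767, a log2 ratio of 0.32 (0.19 to 0.46).

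**Figure D3:**
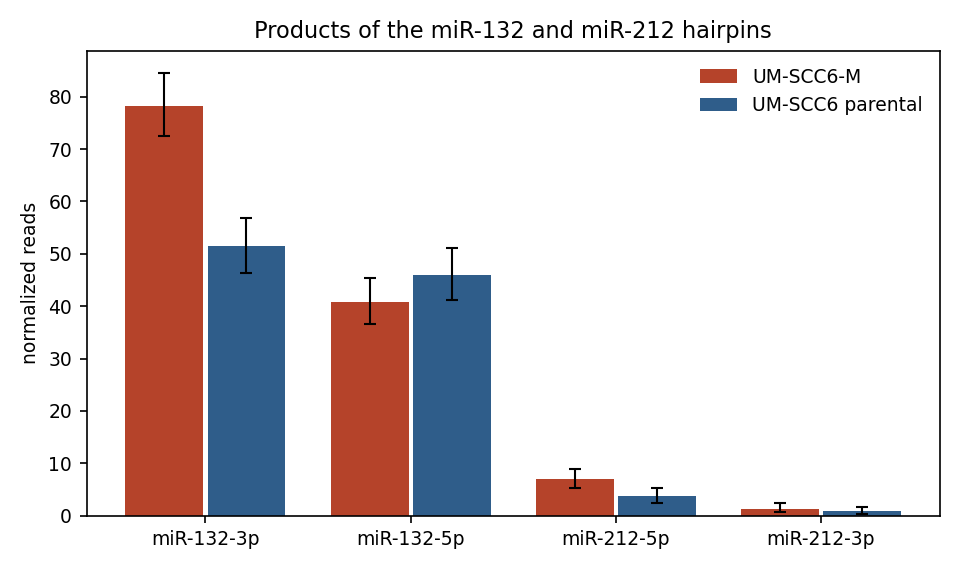
Normalized reads of the 4 products of the miR-132 and miR-212 hairpins in the UM-SCC6-M library (red, left) and the parental library (blue, right), with exact 95% Poisson intervals, 1 library each. miR-132-3p stands at 78.3 and 51.4, while the bars of miR-132-5p lie close together.

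Each of the 5 miRNAs at the floor kept the sign of its log2 ratio under each scaling tried. Scaling to total reads moved every log2 ratio up by 0.24, including the median of the 179, and the others moved it by 0.07 or less. miR-146b-5p lay between -0.43 and -0.17 and miR-132-3p between 0.59 and 0.85. In no scaling did miR-146a-5p, miR-155-5p, miR-146b-5p or miR-132-3p reach 2-fold.

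**Figure D4:**
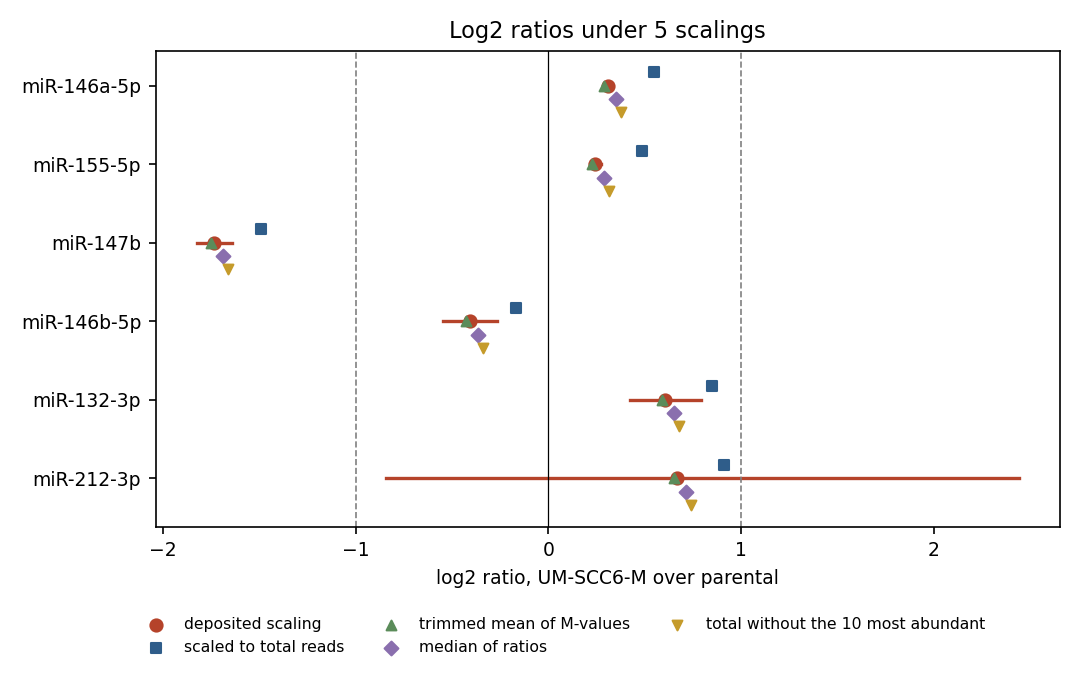
Log2 ratio of UM-SCC6-M over parental (horizontal axis) for each of the 6 miRNAs under 5 scalings (symbols), with the exact 95% counting interval of the deposited scaling as a red line and dashed lines at 2-fold. miR-147b is beyond 2-fold under each, and the interval of miR-212-3p, from -0.84 to 2.44, includes 0.

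In the authors' deposited table, 4 of the 6 had a q-value under 0.05, against 150 of 854 entries (17.6%). The 2 shares are not alike in depth, since 5 of the 6 reached the floor of 50 normalized reads, as only 179 miRNAs did. Of the 28 other NF-kB pathway miRNAs listed (26 with an entry), 15 had a q-value under 0.05. The 4 of the 6 were miR-146a-5p (4.27e-188), miR-155-5p (8.01e-33), miR-147b and miR-132-3p (0.00583). miR-146b-5p and miR-212-3p each had 0.991. These q-values rest on 1 library per culture, and miR-146a-5p and miR-155-5p have the highest levels of the 6. The p-values behind them matched a formula centred on a log2 ratio of -0.24 and not on 0.

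For each miRNA at the floor, the nearest log2 ratios over the 2 libraries were looked up among the 179. Nearest to miR-147b were miR-339-3p (-1.73) and miR-21-3p (-1.69). Nearest to miR-146a-5p were miR-30c-5p (0.31) and miR-330-3p (0.32), and to miR-146b-5p miR-589-5p and miR-629-5p (both -0.41). Nearest to miR-155-5p were miR-30c-2-3p (0.24) and miR-194-5p (0.26), and to miR-132-3p miR-505-3p (0.60) and miR-532-3p (0.61). Each neighbour lay within 0.05 of its miRNA, a likeness over only 2 libraries.

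Other miRNAs reported to act on NF-kB signalling or to follow it were listed apart from the 6, 28 in all, of which 18 reached the floor. At least 2-fold lower in UM-SCC6-M were 3 of the 18 (16.7%, against 12.8% of all miRNAs), and 0 were 2-fold higher (against 7.26%). miR-29b-3p, a repressor of matrix transcripts, had 43.8 normalized reads in UM-SCC6-M against 365.6 in the parental library. miR-218-5p, which the series title names, had 16 against 101.7. miR-500a-5p, reported to repress the deubiquitinase CYLD, a brake on NF-kB, had 32.4 normalized reads in UM-SCC6-M against 67.9. Its log2 ratio of -1.07 (-1.29 to -0.85) sits at the threshold. It did not reach 2-fold with scaling to the totals (-0.83) or with the total taken without the 10 most abundant miRNAs.

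The 4 most abundant of that list lay within 2-fold. miR-21-5p, which represses the translation inhibitor PDCD4, had a log2 ratio of -0.17, and that value turned to 0.07 with scaling to the totals. miR-10a-5p, reported to restrain NF-kB signalling in endothelium, had 16311 normalized reads in UM-SCC6-M against 14847, a log2 ratio of 0.14. miR-182-5p, also reported to repress CYLD, was at 0.09, and miR-222-3p, a repressor of the cell cycle inhibitor CDKN1B, at -0.54. The median of the 18 was -0.12, against 0.04 for all 179, and scaling to the totals turned it to 0.12 (against 0.28). It lay below the median of the 179 under each of the 5 scalings, since a scaling moves both alike. Of the 18, 8 lay above 0 and 10 below in the deposited scaling, and no direction is given for the list.

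**Figure D5:**
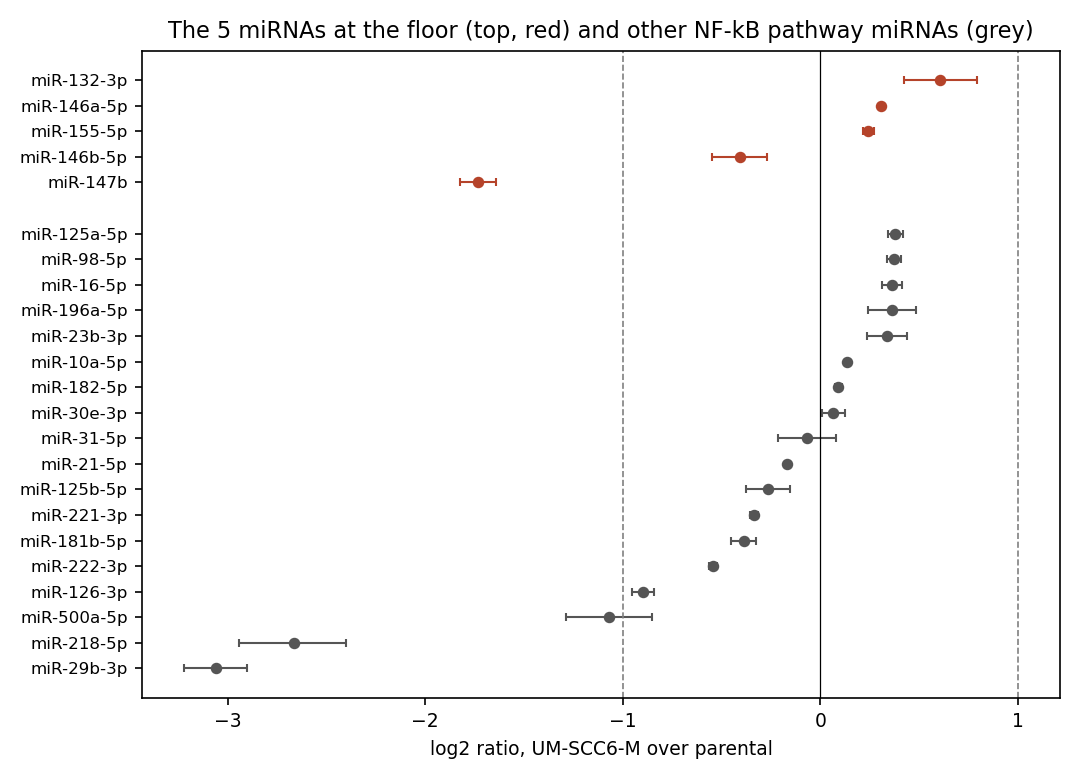
Log2 ratios of UM-SCC6-M over parental (horizontal axis) with exact 95% counting intervals, for the 5 named miRNAs at the floor (red, top) and 18 other miRNAs of NF-kB signalling (grey). Dashed lines mark 2-fold. Beyond 2-fold are miR-147b in red and miR-500a-5p, miR-218-5p and miR-29b-3p in grey, on the low side.

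miR-146a and miR-155 are also abundant in white blood cells, so blood cell markers were read in the same libraries. In these bulk libraries fewer cells of a type and less RNA per cell cannot be told apart. Of 7 markers, miR-142-3p, miR-142-5p, miR-150-5p and miR-451a were listed at 0 in both libraries, so that up to 8 reads in UM-SCC6-M and 7 in the parental library can stand behind each. The fold change of miR-451a in the authors' deposited table matches 1 read in UM-SCC6-M against 6. miR-486-5p had 17.9 normalized reads in UM-SCC6-M against 24.6 in the parental library, which is also the summed level of the list. miR-223-3p and miR-144-3p had no entry under these names. Of 7 epithelial markers, 5 had an entry and 3 reached the floor. The median log2 ratio of these 3 was -0.09, with none past 2-fold in the deposited scaling. These went both ways. miR-200b-3p had 17481 normalized reads in UM-SCC6-M against 12823 in the parental library. miR-200a-3p had 1344 against 2674, and miR-429 had 793 against 845. The log2 ratio of miR-200a-3p, -0.99 (-1.03 to -0.96), sits at the threshold, so its side of 2-fold depends on the scaling. Under the floor, miR-200c-3p had 15 reads in UM-SCC6-M against 20, and miR-203a-3p had 23 against 7. The entry of miR-203b-5p had the same 23 and 7 reads, and whether these are the same reads under both names was not tested. Of 7 fibroblast markers, 3 were listed at 0 in both libraries and 1 reached the floor, miR-199b-5p, which was past 2-fold higher with 87.2 normalized reads in UM-SCC6-M against 41.99. These few levels went both ways: under the floor, miR-199a-3p had 183 reads in UM-SCC6-M against 79, whereas miR-143-3p had 34 against 78 and miR-199a-5p had 1 against 13. The summed level of the fibroblast markers was 113.1 normalized reads in UM-SCC6-M against 64.6, and the part of such cells in the results was not tested. Of the endothelial pair, miR-126-3p had 519.9 normalized reads in UM-SCC6-M against 968.3, and miR-126-5p had 30.6 against 17.8. Of 7 neural markers, looked at because miR-132 is abundant in neurons, 2 reached the floor, miR-128-3p at a log2 ratio of -0.29 and miR-137 at 0.33. Below the floor, miR-138-5p had 121 reads in UM-SCC6-M against 304, a log2 ratio of -1.48 (-1.80 to -1.17). There, miR-9-5p had 157 reads in UM-SCC6-M against 165, and miR-129-5p had 324 against 276. Of the rest of the neural list, miR-9-3p was listed at 0 in both libraries and miR-124-3p had no entry.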

How the data were processed

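The authors deposited 1 table with a column of signal per library, called normalized reads, scaled by a method they do not name. Bowtie is named without a version in the submitters' processing notes, and genome build and miRNA release are not given in the sources used here. Libraries came from 3 µg of total RNA, with fragments of 140 to 160 bp cut from a gel, per the labels' protocols. The deposited log2 fold change has UM-SCC6-M on top, per the file headers, and the deposited p-value and q-value columns are the authors' own.

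In each library all values above 0 were whole multiples of 1 step (0.119 in UM-SCC6-M, 0.133 in parental; largest deviation 0.000181 reads), and dividing by the step gave reads. Levels below 1 were listed as 0, and where this held for 1 column (96 entries), its reads came from the deposited fold change. Reads in both libraries were known for 555 entries. Some pairs of names had almost the same reads. In UM-SCC6-M and the parental library these were 12905 and 3512 for miR-374b-5p, and 12894 and 3510 for miR-374c-3p. Whether the same reads stand under both names was not tested, and the read totals and the counts over all miRNAs take in such pairs. Log2 ratios had 0.5 reads added. Ratio and share intervals are binomial (Clopper-Pearson) ones, level intervals are exact Poisson ones, and differences between log2 ratios have exact conditional odds ratio intervals. Calls needed a 2-fold difference and a higher level of at least 50 normalized reads. No count model was run, since each culture has 1 library. Alternatives were 4 other scalings (trimmed mean of M-values, median of ratios, total reads, and total reads less the 10 most abundant miRNAs of each library), other floors and thresholds, and 5 reads added.

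Named were the 6 members, their opposite arms, listed pathway miRNAs past the size rule with the 4 most abundant, the 2 nearest ratios per member, and blood cell markers. Epithelial, fibroblast, endothelial and neural markers and miR-147a were named after their values were seen, and the marker miR-203a was matched as miR-203a-3p. The members and lists were chosen with earlier results of these data known. The code was tested on simulated data. Python 3.11.15, numpy 2.4.6, pandas 2.3.3, scipy 1.17.1 and matplotlib 3.10.9 were used.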

Additional observations from a re-analysis of the deposited data

How the results depend on the processing

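The count of the 6 miRNAs past the size rule (0 higher, 1 lower) was the same under all 4 other scalings, floors of 10 and 200 normalized reads or none, 5 reads added before the log, and, an alternative chosen after seeing the data, counting intervals wholly beyond 2-fold. With a threshold of 1.5-fold there was 1 higher, miR-132-3p, and 1 lower, and with 4-fold there were 0 of either. Of the other NF-kB list, 1 instead of 3 was lower at a floor of 200. Over all miRNAs, 22 were higher with scaling to the totals. The counts were 21 higher and 45 lower at a floor of 10, 6 and 15 at 200, 59 and 110 without a floor, 32 and 46 at 1.5-fold, and 2 and 5 at 4-fold. The floor changes these counts through the number of miRNAs it takes in (289, 123 and 555 in place of 179). The balance of miR-132-3p to miR-212-3p turned from -0.11 to 0.21 when 5 reads were added, an alternative added after seeing the data, and rests on 11 and 6 reads of miR-212-3p. The other 6 within-library differences kept their sign under it. Depth limits statements on miR-212-3p, miR-146b-3p and miR-155-3p, each with at most 23 reads in either library. No paired analysis was possible because each culture has 1 library.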

Other observations

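The deposited p-values and fold changes of these miRNAs do not share 1 centre. Entries above 0 in both columns were taken, without those whose deposited p-value was 0 or extremely small, which left 451. For 441 of them (97.8%), a normal approximation matched the deposited p-value within 0.01 on the log10 scale. This formula takes the scaled values as counts and centres the log2 ratio on that of the column sums, -0.24. Centred on 0, the same formula matched 2 of 451. miR-146b-5p shows the size of the gap. Its deposited p-value was 0.403, the formula centred on -0.24 gave 0.403, and the formula centred on 0 gave 0.0399, for the same deposited log2 fold change of -0.41. For miR-132-3p the values were 0.000894 deposited and 0.0176 centred on 0. For miR-155-5p they were 4.5e-34 deposited and 1.12e-09 centred on 0. For miR-147b they were 1.13e-35 deposited and 1.37e-47 centred on 0. A deposited fold change below 0 thus met a null value that was itself below 0. The scaled values of these miRNAs are also fewer than the recovered reads, 91.1 against 763 for miR-146b-5p in UM-SCC6-M. These p-values compare 1 library of each culture and carry no spread between cultures. The authors' mark covered exactly the 44 entries with a q-value under 0.01 and a log2 fold change above 1 in size, and miR-147b was among them.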
